A study of Mus musculus with 6 samples.

Results

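Histone acetylation is set by enzymes that add acetyl groups to lysines (writers), enzymes that remove them (erasers) and proteins that bind them (readers). Here 35 genes of this machinery, chosen by symbol, were followed among the 16281 genes counted in mouse CD8+ T cells, the killer T cells that recognize peptides on infected or malignant cells. They comprised 16 erasers, in 4 classes of histone deacetylases and the sirtuins, 10 acetyltransferases, 3 nuclear receptor coactivators, 1 corepressor scaffold and 5 bromodomain readers. The cells came from the spleens of OT1 mice on the C57BL/6 background (genotype Tg(TcraTcrb)1100Mjb), whose T cells carry one transgenic receptor for an ovalbumin peptide. Every culture was activated over 48 h through CD3 and CD28 antibodies in medium with IL-2, and then grown on with IL-2 for 3 days. The GSK group (3 samples) received 0.5 μM GSK2879552, an inhibitor of the histone demethylase LSD1, throughout activation and expansion, and the Veh group (3 samples) received the vehicle. All 6 samples share the transgene, the stimulation and the isolation from spleen, so untreated resting cells are not part of the comparison.

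LSD1 removes methyl groups from histones and works in repressor complexes that also hold histone deacetylases, whereas acetyltransferases sit in separate complexes that open chromatin. Class IIa deacetylases have weak catalytic activity of their own, travel between nucleus and cytoplasm in T cells, and act as docking proteins on MEF2 transcription factors and on the NCoR corepressor. Bromodomain proteins read acetyl-lysine and bring the transcription or remodelling machinery to it.

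The counts per sample summed to between 18288447 and 18918811 in Veh and between 19149909 and 19846720 in GSK. Levels below are counts per 1000000 (CPM), relative to sample totals after TMM scaling. Differences are log2 fold changes of GSK over Veh with standard errors (SE) from edgeR's quasi-likelihood test, and p-values were adjusted over 11698 genes by the Benjamini-Hochberg method. "Rose" and "fell" are used for an adjusted p under 0.05, and "called" for genes that also passed a fold change of 1.5. Of the CD8 T cell markers, Cd8a lay between 495 and 555 CPM over the 6 samples, and the summed level of Cd3d, Cd3e, Cd3g, Cd8a and Cd8b1 was 1937 to 2036 CPM in Veh and 1752 to 1869 CPM in GSK, with Cd3d, Cd3e and Cd3g (3 of 5) lower. Summed B cell markers lay at 6.04 to 8.05 CPM in Veh and 7.87 to 9.06 CPM in GSK, where 2 of 6 markers could be tested. Of these, Cd22 rose (log2 fold change 2.65, adjusted p 1.5e-04 by edgeR's quasi-likelihood test), and Cd79b did not pass (-0.41, adjusted p 0.07 by the same edgeR test). The B cell factor Pax5 did not exceed 0.304 CPM in any sample. Summed myeloid and dendritic cell markers lay at 6.38 to 9.52 CPM in Veh and 3.08 to 4.66 CPM in GSK, with Itgax lower and 3 others not past the test among the 4 of 8 measured markers that could be tested, and the monocyte marker Cd14 at no more than 0.163 CPM. The part of these markers in the results was not tested. Long genes also moved with the groups. The median log2 deviation of the longest 25% of genes minus that of the shortest 25% was 0.056, 0.023 and 0.016 in the 3 Veh samples and -0.026, -0.0011 and -0.067 in the 3 GSK samples, so that each GSK sample lay below each Veh sample.

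The members that differed most between GSK and Veh were 2 class IIa histone deacetylases, Hdac5 and Hdac7. Of the 34 members that passed the filter on low counts, 4 rose and 8 fell, against a background of 32.1% of all genes tested that passed in either direction (16.6% higher and 15.5% lower). The share of members past the test was 35.3%, near the background. Without Veh replicate 1 or without GSK replicate 3, 2 members rose and 4 fell, without GSK replicate 1, 2 rose and 5 fell, and without Veh replicate 2, 2 rose. The number of all genes that rose also changed when a sample was left out, as given in the closing section. These counts are therefore not a result about the members. Past a fold change of 1.5, 0 members were called higher, against 2.22% of all genes, and 2 were called lower (Hdac5 and Hdac7), against 4.09% of all genes, or 6.32% in either direction. The median log2 fold change over the tested members was -0.07 and the median size of the change was 0.12, beside 0.00 and 0.16 over all genes tested. All 3 GSK samples lay above all 3 Veh samples for 4 members (23.7% of all genes) and below them for 11 (23.0% of all genes), so that groups did not overlap for 15 of 34 members, beside 46.7% of all genes.

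**Figure D1:**
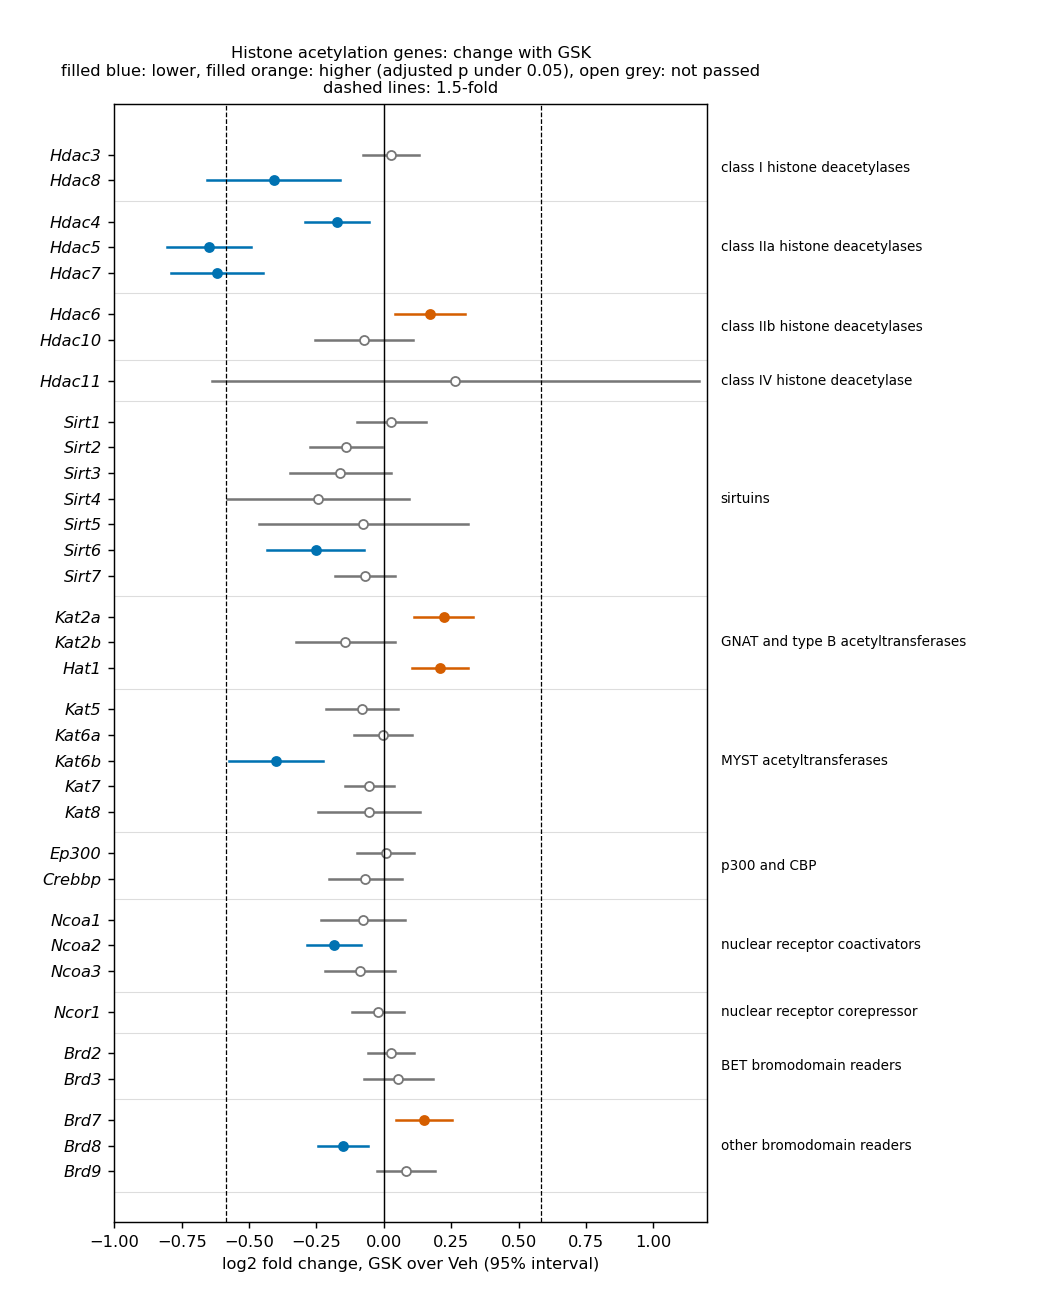
Log2 fold change of GSK over Veh for the 34 tested members, grouped by role, with 95% intervals (lines) and dashed lines at a 1.5-fold change. Filled blue points fell, filled orange points rose and open grey points did not pass the test; Hdac5 and Hdac7 lie farthest to the left, and Hdac11, at under 1.5 CPM in every sample, has the widest interval.

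Class IIa histone deacetylases were lower in GSK for each of the 3 members that could be tested, where 15.5% of all genes fell. The call of Hdac4 among them was lost in several alternatives, as given below. Hdac7 and Hdac5 were the only 2 members called, where 4.09% of all genes were called lower. Hdac7 encodes the class IIa enzyme that is prominent in thymocytes and in cytotoxic T cells. Its gene lies on chr15:97792661-97844502 (GRCm38, minus strand). It was counted at 391, 356 and 381 CPM in Veh and at 244, 273 and 217 CPM in GSK, so the highest GSK sample lay well below the lowest Veh sample. Hdac7 fell by 0.62 on the log2 scale (SE 0.076, 95% interval -0.79 to -0.45), with an adjusted p of 4.3e-04 by edgeR's quasi-likelihood test. Without GSK replicate 3, which held its lowest level, the change was -0.54, still past the test and no longer past 1.5-fold. Removing the trend with gene length gave -0.58, again just short of 1.5-fold. Of its exonic bases, 0.429% are shared with Slc48a1 on the opposite strand.

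Hdac5 encodes a second class IIa deacetylase and lies on chr11:102195747-102230172 (minus strand). Its level was 64.1, 62.2 and 68.7 CPM in the Veh samples and 40.7, 45.9 and 37.8 CPM in the GSK samples, with no overlap between the groups. Hdac5 fell by 0.65 on the log2 scale (SE 0.073, 95% interval -0.80 to -0.49), with an adjusted p of 5e-05 by edgeR's quasi-likelihood test. This call held without each sample in turn, at -0.73 to -0.59, and with the length trend removed, at -0.60. The microRNA gene Mir8101 lies within 1.26% of its exonic bases. For Hdac7 and Hdac5 alike, GSK replicate 2 was the highest and GSK replicate 3 the lowest of the GSK samples.

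Hdac4, the third tested paralogue, lay at 66.1, 62.2 and 60.6 CPM in Veh and 56.2, 56.0 and 55.3 CPM in GSK. The groups did not overlap, and Hdac4 fell by 0.17 on the log2 scale (SE 0.054), with an adjusted p of 0.027 by edgeR's quasi-likelihood test. This call was lost without Veh replicate 1 (adjusted p 0.12), Veh replicate 2 (0.053), GSK replicate 1 (0.072) or GSK replicate 3 (0.056), and with the length trend removed the change was -0.07 (adjusted p 0.30). Of its exonic bases, 22.4% are shared with Gm26720, a non-coding gene on the opposite strand that was not counted, and whether the counting used the strand is not given in the sources used here. Hdac9, whose product also has a catalytically inactive short form, was counted 4, 1 and 0 times in Veh and 0 times in each GSK sample, too few to test.

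Compared per length, the class IIa genes were far from equal. In CPM per kilobase of exons, Hdac7 made up 83.0% ± 0.38 (SD, n = 3) of the summed class IIa level in Veh and 81.4% ± 0.85 in GSK. Hdac5 held 11.04% ± 0.50 in Veh and 10.6% ± 0.17 in GSK. For Hdac4 the share was 5.94% ± 0.27 in Veh and 7.99% ± 0.77 in GSK, and its lowest GSK value (7.21%) lay above its highest Veh value (6.17%). The summed class IIa level was 67.1 ± 2.95 CPM per kilobase in Veh and 44.5 ± 4.59 CPM per kilobase in GSK (SD, n = 3), with all GSK samples below all Veh samples. In bulk RNA, fewer cells that express these genes and less RNA per cell cannot be told apart.

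**Figure D2:**
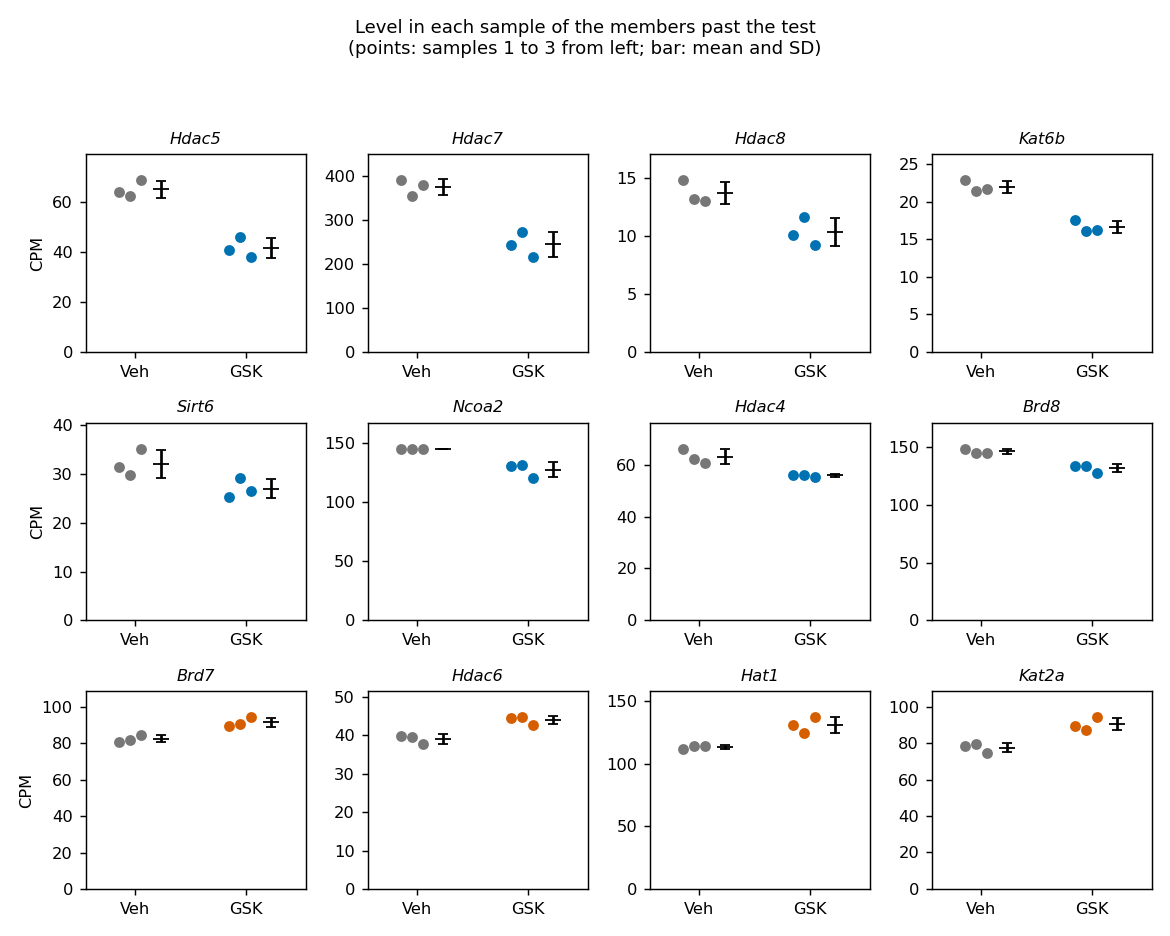
Level in CPM of each of the 12 members past the test, with the 3 Veh samples in grey and the 3 GSK samples in blue (fell) or orange (rose), and bars for the mean and SD of each group; axes start at 0. In every panel the points of Veh and GSK are separated, by a wide gap for Hdac5 and Hdac7 and by a narrow one for Sirt6, where the lowest Veh sample (29.7 CPM) and the highest GSK sample (29.1 CPM) nearly meet.

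The sequences upstream of the pair of called genes are shown since both fell together. Each is the 250 bases before a start site given by RefSeq on GRCm38, free of annotated exons, read 5′ to 3′ on the gene's minus strand, with a GC box (GGGCGG or its reverse complement) and a match to the MEF2 consensus in capitals. The Hdac5 window is chr11:102230173-102230422. The Hdac7 window, chr15:97831768-97832017, is the one with the most CpG among 3 exon-free windows of 4 listed start sites, and it holds neither motif, while another Hdac7 window, which lies in annotated exons and is not shown, holds 1 GC box. In the Hdac5 window both matches lie in the downstream part, the MEF2 match close to the start site.
Hdac5: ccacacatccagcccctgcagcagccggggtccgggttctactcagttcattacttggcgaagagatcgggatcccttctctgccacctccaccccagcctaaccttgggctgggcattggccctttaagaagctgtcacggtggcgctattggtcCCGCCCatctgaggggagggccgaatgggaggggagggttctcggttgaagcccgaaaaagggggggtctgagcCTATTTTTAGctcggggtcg
Hdac7: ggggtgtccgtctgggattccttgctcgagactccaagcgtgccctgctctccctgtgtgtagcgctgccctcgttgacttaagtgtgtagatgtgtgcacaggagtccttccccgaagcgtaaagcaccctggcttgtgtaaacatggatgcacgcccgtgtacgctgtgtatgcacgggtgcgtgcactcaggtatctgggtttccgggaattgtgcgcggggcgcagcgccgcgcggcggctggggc

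RefSeq start sites were found for 29 of the 35 members, in 43 windows. The MEF2 consensus matched 1 of these (2.33%), that of Hdac5, and 2.92% of all 32851 windows. That motif was added to the search after the Hdac5 window had been seen. MEF2 factors are the DNA-binding partners on which class IIa deacetylases dock, and the transcript of 1 of them, Mef2d, is described with the partner genes. A GC box, the letters bound by Sp factors, was in 60.47% of member windows and in 32.74% of all windows. The ETS core CCGGAAG was in 18.6% of member windows and 6.91% of all windows. The AP-1 site TGAGTCA was in 4.65% against 4.46%, the E-box CACGTG in 6.98% against 6.02%, and ACGTG, which an E-box contains, in 23.26% against 16.57%. The cAMP response letters TGACGTCA were in 0 member windows, against 1.55% of all. AAATCA, the core letters bound by the LSD1 partner GFI1, were in 4.65% of member windows and 12.43% of all. The member windows held a median of 17 CpG, against 6 over all windows, and a match of letters is not evidence of binding. Some member windows overlap, as for Brd9 and Kat6b, so 1 site can count more than once. The set of all windows was not limited to expressed genes, so these shares do not show a trait particular to the members.

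Among the members of classes I, IIb and IV, 1 fell and 1 rose, where 15.5% and 16.6% of all genes did. The class I genes Hdac1 and Hdac2 are not among the members and are described with the partner genes. Hdac8 encodes a class I enzyme that deacetylates cohesin as well as histones, and lay at 14.8, 13.2 and 13.1 CPM in Veh and at 10.1, 11.6 and 9.28 CPM in GSK, with no overlap between the groups. It fell by 0.41 on the log2 scale (SE 0.115), with an adjusted p of 0.016 by edgeR's quasi-likelihood test. Its adjusted p was 0.074 without Veh replicate 1, 0.060 without GSK replicate 1 and 0.058 without GSK replicate 3. Hdac3, the catalytic subunit of the NCoR complex, lay between 91.1 and 98.4 CPM in Veh and between 94.3 and 98.6 CPM in GSK, and its interval of -0.08 to 0.13 left no room for a 1.5-fold change.

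Hdac6 encodes the class IIb enzyme that deacetylates tubulin in the cytoplasm. It lay at 40.0, 39.7 and 37.7 CPM in Veh and 44.6, 44.8 and 42.7 CPM in GSK, and each GSK level exceeded the highest Veh level. It rose by 0.17 on the log2 scale (SE 0.060), with an adjusted p of 0.045 by edgeR's quasi-likelihood test, a call that was lost without any 1 of the 6 samples: the adjusted p was 0.077, 0.079 and 0.14 without Veh replicates 1, 2 and 3, and 0.13, 0.087 and 0.053 without GSK replicates 1, 2 and 3. Hdac10, the polyamine deacetylase of the same class, did not pass the test (log2 fold change -0.07, interval -0.25 to 0.11). Hdac11, the single class IV member, stayed between 0.578 and 1.47 CPM over all samples, and at this depth its interval of -0.64 to 1.17 did not exclude a change of 1.5-fold or more either way. It shares 15.4% of its exonic bases with Gm44002 on the opposite strand.

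Of the 7 sirtuins, the NAD-dependent erasers, 1 fell and 6 did not pass the test, where 15.5% of all genes fell. Sirt6, a nuclear deacetylase of histones at telomeres and glycolytic genes, lay at 31.4, 29.7 and 35.2 CPM in Veh and at 25.3, 29.1 and 26.4 CPM in GSK. The groups were separated only narrowly, and Sirt6 fell by 0.25 on the log2 scale (SE 0.083), with an adjusted p of 0.034 by edgeR's quasi-likelihood test. The adjusted p was 0.064 without Veh replicate 1, 0.15 without Veh replicate 3, 0.14 without GSK replicate 1 and 0.073 without GSK replicate 3.

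Sirt2, the mainly cytoplasmic sirtuin, lay at 71.0, 61.9 and 69.0 CPM in Veh and at 59.9, 63.7 and 59.4 CPM in GSK, and the groups overlapped. Its log2 fold change of -0.14 (interval -0.28 to -0.01) had an adjusted p of 0.096, and of 0.033 without Veh replicate 2, by edgeR's quasi-likelihood test. Sirt3 and Sirt4 had all GSK samples below all Veh samples, as did 23.0% of all genes. Their log2 fold changes of -0.16 and -0.24 did not pass (adjusted p 0.17 and 0.25 by the same edgeR test). Sirt3 shares exonic bases with Ric8a (7.0%) and Psmd13 (5.73%) on the opposite strand. Sirt1, the nuclear sirtuin nearest to the yeast founder of the family, Sirt5, a remover of succinyl groups, and Sirt7, a nucleolar sirtuin, overlapped between groups at log2 fold changes of 0.03, -0.08 and -0.07, and 14.2% of the 50-base windows of Sirt5 also occur in other genes. Summed per kilobase, the sirtuins lay at 58.7 ± 1.74 CPM per kilobase in Veh and 54.2 ± 1.33 CPM per kilobase in GSK (SD, n = 3), and the highest GSK sum (55.7) was below the lowest Veh sum (57.2).

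Among the writers, 2 of 3 GNAT and type B members rose, where 16.6% of all genes did. In the MYST group 1 of 5 members fell, where 15.5% of all genes did. Kat2a encodes GCN5, the acetyltransferase of the SAGA and ATAC coactivator complexes, on chr11:100704746-100712485 (minus strand). It lay at 78.3, 79.8 and 74.6 CPM in Veh and at 89.7, 87.5 and 94.3 CPM in GSK, with the groups fully apart. Kat2a rose by 0.22 on the log2 scale (SE 0.051, interval 0.11 to 0.33), with an adjusted p of 0.0055 by edgeR's quasi-likelihood test. Hat1 encodes the enzyme that acetylates newly made histones before they enter chromatin, on chr2:71389260-71441622 (plus strand), and lay at 112, 114 and 114 CPM in Veh and at 131, 125 and 137 CPM in GSK. All GSK samples were above all Veh samples, and Hat1 rose by 0.21 on the log2 scale (SE 0.048, interval 0.11 to 0.31), with an adjusted p of 0.0051 by edgeR's quasi-likelihood test.

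Kat2b, which encodes PCAF, the paralogue of GCN5, did not pass the test. It lay at 51.2, 46.3 and 43.3 CPM in Veh and at 41.6, 47.3 and 38.5 CPM in GSK, and the groups overlapped through GSK replicate 2. The log2 fold change was -0.14 (interval -0.33 to 0.04, adjusted p 0.22 by edgeR's quasi-likelihood test), and without GSK replicate 2 it was -0.23 with an adjusted p of 0.034. As 7.28% of its 50-base windows also occur in the pseudogene Kat2b-ps, a part of its reads could be assigned to either. Summed per kilobase, Kat2a, Kat2b and Hat1 reached 71.2 ± 1.22 CPM per kilobase in Veh and 80.1 ± 2.28 CPM per kilobase in GSK, of which Kat2b held 13.5% ± 1.02 in Veh and 10.9% ± 1.44 in GSK (SD, n = 3), with every GSK share below every Veh share.

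In the MYST family, Kat6b was the 1 of 5 members past the test. It encodes MORF, an acetyltransferase for histone H3 within BRPF scaffolds, on chr14:21499216-21672478 (plus strand). Its level was 22.9, 21.4 and 21.7 CPM in Veh and 17.6, 16.1 and 16.3 CPM in GSK, with no overlap. Kat6b fell by 0.40 on the log2 scale (SE 0.081, interval -0.57 to -0.22), with an adjusted p of 0.0026 by edgeR's quasi-likelihood test. It has the longest exons of the tested members, at 16826 bases, and with the length trend removed its change was -0.30, still past the test (adjusted p 0.012).

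Its paralogue Kat6a (MOZ) lay at 203, 204 and 197 CPM in Veh and at 207, 209 and 187 CPM in GSK, a log2 fold change of 0.00 with an interval of -0.11 to 0.10. Kat7 (HBO1), which serves replication origins, had GSK samples below all Veh samples by a small margin and did not pass (-0.05, interval -0.14 to 0.04). Kat5 (TIP60) and Kat8 (MOF) overlapped between groups, at -0.08 and -0.05. Of the exonic bases of Kat5, 12.1% are shared with Rnaseh2c on the opposite strand.

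The broad acetyltransferases p300 and CBP, which acetylate enhancers, did not pass the test. Ep300 lay at 208, 198 and 197 CPM in Veh and 202, 213 and 191 CPM in GSK, a log2 fold change of 0.01 with an interval of -0.10 to 0.11. Crebbp lay between 63.7 and 65.4 CPM in Veh and between 57.7 and 67.5 CPM in GSK (-0.07, interval -0.20 to 0.07). Both intervals were narrower than a 1.5-fold change in either direction.

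Nuclear receptor coactivators of the p160 family, which recruit p300 and CBP, held 1 member past the test. Ncoa2 lay at 145, 145 and 146 CPM in Veh and at 131, 132 and 121 CPM in GSK, so the GSK samples lay below a very narrow Veh range. It fell by 0.18 on the log2 scale (SE 0.046), with an adjusted p of 0.0092 by edgeR's quasi-likelihood test. Its exons span 15642 bases, and with the length trend removed the change was -0.09 with an adjusted p of 0.15. Ncoa3 overlapped between groups, at 186, 170 and 173 CPM in Veh and 167, 179 and 152 CPM in GSK (log2 fold change -0.09, adjusted p 0.28, and 0.049 without GSK replicate 2, by edgeR's quasi-likelihood test). Ncoa1 overlapped too, at -0.08 (interval -0.23 to 0.08).

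Ncor1, the corepressor scaffold that activates Hdac3, did not pass the test, at 424, 411 and 410 CPM in Veh and 411, 430 and 385 CPM in GSK (log2 fold change -0.02, interval -0.12 to 0.07).

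Among the bromodomain readers 1 rose and 1 fell, where 16.6% and 15.5% of all genes did. The BET proteins Brd2 and Brd3, which bind acetylated histones through tandem bromodomains, overlapped between groups, with intervals of -0.06 to 0.11 for Brd2 and -0.07 to 0.18 for Brd3. Brd2 shares 4.6% of its exonic bases with H2-DMa on the opposite strand. Brd7, the bromodomain subunit of the PBAF remodeller, lay at 80.9, 82.1 and 84.6 CPM in Veh and at 89.4, 90.8 and 94.4 CPM in GSK, with all GSK samples above. It rose by 0.15 on the log2 scale (SE 0.048), with an adjusted p of 0.030 by edgeR's quasi-likelihood test. The adjusted p was 0.10 without Veh replicate 1, 0.081 without Veh replicate 2, 0.062 without GSK replicate 1 and 0.095 without GSK replicate 3.

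Brd8, a bromodomain subunit of the TIP60 complex, moved the other way, at 149, 145 and 145 CPM in Veh and 133, 134 and 128 CPM in GSK. The groups did not overlap, and Brd8 fell by 0.15 on the log2 scale (SE 0.043), with an adjusted p of 0.018 by edgeR's quasi-likelihood test, and of 0.072 without Veh replicate 1 and 0.053 without GSK replicate 3. With the length trend removed it was at -0.08 with an adjusted p of 0.15. Brd9, the bromodomain subunit of the non-canonical SWI/SNF complex, overlapped between groups at 0.08 (interval -0.03 to 0.19).

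**Figure D3:**
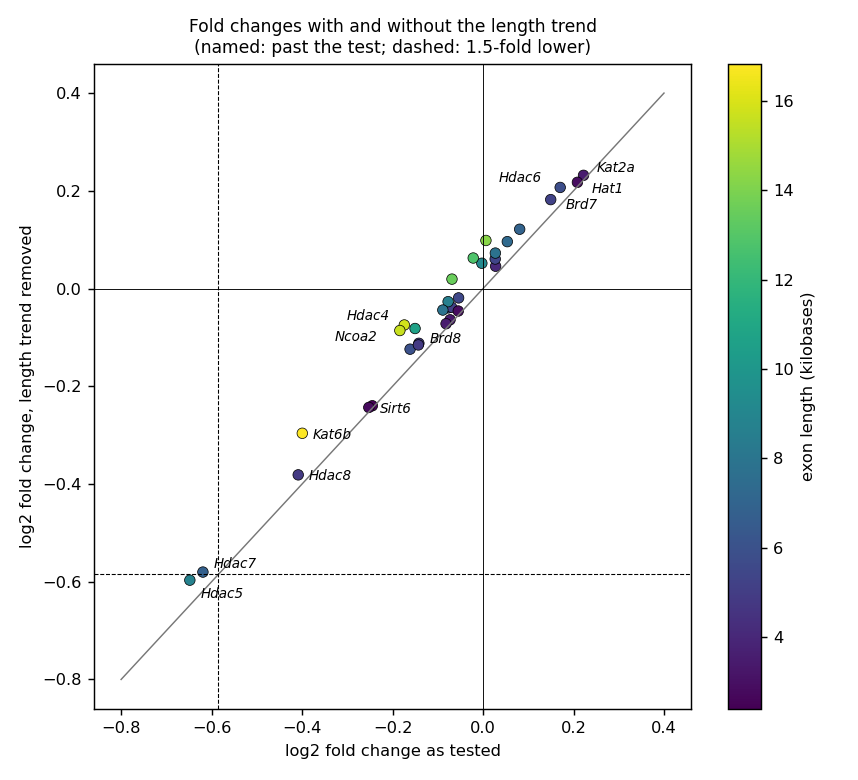
Log2 fold change of each member as tested (x axis) and after the trend with gene length was removed (y axis), coloured by exon length in kilobases, with the diagonal of equal values and dashed lines at 1.5-fold lower; Hdac11 is left out. Every member shown lies above the diagonal. Members with long exons (Kat6b, Hdac4, Ncoa2, Brd8) lie farther above it than those with short exons such as Hat1 and Kat2a. Hdac7 crosses the 1.5-fold line by a small margin while Hdac5 does not.

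Gene length moved with the result for the long members. With the trend removed, 9 of the 12 members still passed the test, and Hdac4, Ncoa2 and Brd8 did not. With DESeq2, whose p-values were adjusted by the same method, 8 of the 12 passed, and the adjusted p was 0.062 for Hdac4, 0.11 for Hdac6, 0.057 for Sirt6 and 0.061 for Brd7.

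The levels of the members per length spanned a wide range. In Veh, Hdac7 was highest at 55.7 ± 2.66 CPM per kilobase (SD, n = 3), followed by Brd2 at 41.2 ± 1.11, Hat1 at 39.3 ± 0.48, Ncor1 at 32.4 ± 0.63 and Kat7 at 26.7 ± 0.43, and none of these 5 overlapped with its neighbour in the order. Hdac3, Ncoa3, Kat2a and Kat6a followed at 23.3 to 21.9 CPM per kilobase, each overlapping with the next. In GSK the order at the top differed, with Hat1 at 45.4 ± 2.17, Brd2 at 42.0 ± 1.01 and Hdac7 at 36.2 ± 4.11 CPM per kilobase. At the low end in Veh were Kat6b (1.31), Sirt5 (0.868), Hdac11 (0.205) and Hdac9 (0.0062 CPM per kilobase).

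**Figure D4:**
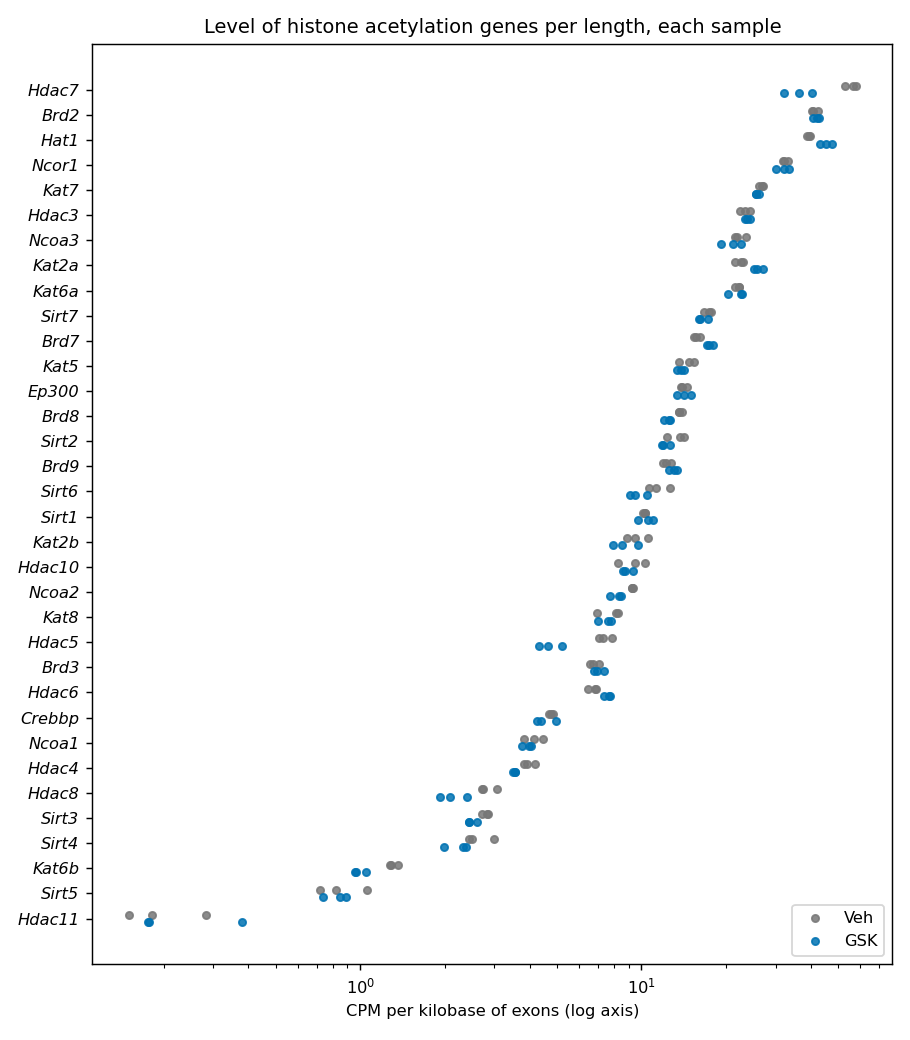
Level per length, in CPM per kilobase of exons on a log axis, of the 34 tested members in each Veh sample (grey) and GSK sample (blue), ordered by the Veh mean. Hdac7 leads in Veh at 55.7 and lies below Hat1 and Brd2 in GSK, at 36.2.

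The genes that work with the members were taken from lists of complex partners, other acetyl-lysine readers and cofactor supply. Of 132 such genes, 126 were tested, of which 22 rose and 29 fell (40.5%, beside 32.1% of all genes), and 0 were called higher and 4 lower, where 2.22% and 4.09% of all genes were. In the NCoR complex 1 of 4 partners rose and 2 fell (75%, beside 32.1% of all genes). Of these partners, the smallest p was that of Tbl1xr1, a WD-repeat exchange factor (log2 fold change -0.20, adjusted p 0.0032 by edgeR's quasi-likelihood test). Among 23 Sin3 and NuRD subunits, the home of the class I deacetylases Hdac1 and Hdac2, 6 rose and 8 fell (60.9%, beside 32.1% of all genes). Hdac2 lay at 77.9, 86.8 and 84.3 CPM in Veh and at 102, 92.1 and 104 CPM in GSK, with the groups apart, and rose by 0.26 (SE 0.059, adjusted p 0.0052 by edgeR's quasi-likelihood test). Hdac1 did not pass (0.06, interval -0.03 to 0.15). The smallest p there was that of Mbd2, a reader of methylated DNA in NuRD, at 247, 246 and 241 CPM in Veh and 308, 322 and 320 CPM in GSK (0.37, adjusted p 3e-05 by edgeR's quasi-likelihood test).

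Of the SAGA and ATAC subunits that surround Kat2a, 5 of 21 rose and 2 fell (33.3%, near the 32.1% of all genes). Wdr5, a WD-repeat subunit, had the smallest p there (0.25, adjusted p 0.0030 by edgeR's quasi-likelihood test). Among 27 subunits of MYST complexes 3 rose and 4 fell (25.9%, below the share of all genes). The smallest p was that of Ing4, a reader of methylated histone H3 in the HBO1 complex. It lay at 43.7, 37.3 and 40.6 CPM in Veh and 29.4, 31.4 and 26.2 CPM in GSK (-0.48, adjusted p 8.7e-04 by edgeR's quasi-likelihood test). Of the 4 partners of Brd7 and Brd9 in SWI/SNF complexes 3 fell and 0 rose, where 15.5% and 16.6% of all genes did. The smallest p was that of Phf10, a PBAF subunit (-0.33, adjusted p 9e-04 by edgeR's quasi-likelihood test). Brd7 itself rose, while Phf10, Arid2 and Bicra on that list fell. Arid2 was at -0.18 (adjusted p 0.011) and Bicra at -0.39 (adjusted p 0.0038), both by edgeR's quasi-likelihood test. Bicral did not pass (-0.02). No alternative fits are given for Arid2 and Bicra. Of 26 tested other acetyl-lysine readers 3 rose and 5 fell (30.8%, near the share of all genes). Brdt, the testis BET protein, was called lower at no more than 2.68 CPM in any sample (-1.62, adjusted p 0.0051 by edgeR's quasi-likelihood test).

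Class IIa partners comprised MEF2 factors, protein kinases D and the phosphoserine-binding Ywha adaptors that hold class IIa deacetylases in the cytoplasm. Of 10 tested, 3 rose (all of them Ywha adaptors: Ywhab, Ywhag and Ywhaq, at 0.17, 0.18 and 0.29) and 1 fell. Together these were 40% of the tested partners, beside 32.1% of all genes. The call of Ywhag was lost without Veh replicate 1 (adjusted p 0.057 by edgeR's quasi-likelihood test), Veh replicate 3 (0.074), GSK replicate 1 (0.060) or GSK replicate 3 (0.054). Mef2d, a main MEF2 factor of T cells, lay at 214, 189 and 199 CPM in Veh and at 157, 159 and 147 CPM in GSK, with no overlap. Mef2d fell by 0.38 on the log2 scale (SE 0.053), with an adjusted p of 2.3e-04 by edgeR's quasi-likelihood test, in the same direction as Hdac5 and Hdac7. Mef2a, the only other MEF2 factor above the filter, overlapped between groups, at 148, 150 and 156 CPM in Veh and 157, 167 and 153 CPM in GSK (0.07, adjusted p 0.27, and 0.17 with an adjusted p of 0.015 with the length trend removed, by edgeR's quasi-likelihood test). Mef2b, Mef2c and Prkd1 were below the filter.

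Of 11 tested genes of acetyl-CoA and NAD supply, 1 rose, 4 fell and 6 did not pass (45.5% past the test, beside 32.1% of all genes). Of those that fell, 3 were called, where 4.09% of all genes were called lower. Acss2, which makes acetyl-CoA from acetate in cytoplasm and nucleus, lay at 38.0, 34.4 and 41.4 CPM in Veh and at 18.7, 24.3 and 21.7 CPM in GSK, with a wide gap between the groups. It fell by 0.81 on the log2 scale (SE 0.099), with an adjusted p of 1.1e-04 by edgeR's quasi-likelihood test. Its mitochondrial counterpart Acss1 lay at 40.7, 33.3 and 34.5 CPM in Veh and at 20.9, 29.3 and 20.0 CPM in GSK and fell by 0.63 (SE 0.15, adjusted p 0.015 by the same edgeR test). Its 1.5-fold call was lost, with the test still passed, without Veh replicate 1 (-0.53), GSK replicate 1 (-0.56) or GSK replicate 3 (-0.53). Acly, which makes acetyl-CoA from citrate, rose by 0.14 (adjusted p 0.015 by edgeR's quasi-likelihood test, and 0.077, 0.057 and 0.076 without Veh replicate 1, Veh replicate 3 and GSK replicate 1). Nadsyn1, of NAD synthesis, fell by 0.38 (adjusted p 0.015, and 0.078 without Veh replicate 3, by the same edgeR test). Nmnat2, also of NAD synthesis, was called lower at under 2 CPM in every sample (-1.56, adjusted p 0.0035 by edgeR's quasi-likelihood test).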

How the data were processed

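Poly(A)+ RNA of 6 cultures of OT1 CD8+ T cells (3 Veh, 3 GSK) was sequenced from stranded libraries. The authors trimmed reads with Trimmomatic, mapped them to GRCm38 with HISAT2 (version 2.1.0) and counted them per gene with HTSeq (version 0.11.2), and the deposited values are these whole counts, not normalized. The annotation release and the strand setting of the counting are not given in the sources used here, so genes that overlap others are uncertain. The cells came from 3 separate mice, and it is not stated that Veh and GSK cultures with the same number share one.

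GSK was compared with Veh by edgeR (version 4.0.16, under R version 4.3.3) with TMM scaling, filterByExpr, the robust quasi-likelihood test and Benjamini-Hochberg adjustment over 11698 genes. The SE was the log2 fold change divided by the root of the F statistic. With 3 samples against 3, an exact two-sided permutation test of 1 gene cannot go below a p of 0.1, so none was used. Levels per kilobase used the union of exons in the GENCODE annotation of GRCm38. For the length trend, a smooth trend of each sample's log2 deviations with exon length, known for 99.2% of tested genes, was removed. Gene positions are those of RefSeq on GRCm38. Motifs were searched on both strands in 250 bases upstream of RefSeq start sites on GRCm38.

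The 35 members and all lists were chosen with earlier results of these data known. Every member was accounted for, with values in each sample for those past the test, under the filter or changed in call by an alternative. Of the partner lists, genes past both thresholds were named, or else the one with the smallest p. Hdac1, Hdac2, Mef2a, Acly, Nadsyn1, Ywhab, Ywhag, Ywhaq, Arid2, Bicra and Bicral were named after their values were seen. Alternatives were DESeq2 (version 1.42.0), RLE size factors, no filter, a mean count of at least 50, the replicate number as a block, testing against a 1.5-fold change, the length trend and leaving out each sample. The tests were checked on simulated counts. Replicates differed by more than sampling noise. The chi-square over its degrees of freedom was 9.42 between GSK replicates 2 and 3, and 4.08 to 4.84 for the other pairs within a group. One B cell marker is not reported here.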

Additional observations from a re-analysis of the deposited data

How the results depend on the processing

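Of the 12 members past the test, Hdac5, Hdac7, Kat2a, Hat1 and Kat6b passed in each of 12 alternatives, and the other 7 lost the test in at least 1 of them. DESeq2 left 2 members higher, and it gave no adjusted p to 4735 genes, 1 member among them. Its losses were Hdac4, Hdac6, Sirt6 and Brd7, and without the filter on low counts Hdac6 was lost. A test of the fold change against 1.5, a stricter question by construction, left 0 members higher, 0 lower and 0 called lower, 0 partner genes higher and 0 lower, and 69 of all genes higher and 65 lower. Removing the length trend left 5 members lower and 1 called lower, and put 60.4% of all calls on the higher side, against 51.6%. Leaving out 1 sample gave 2 to 3 members higher, 4 to 10 lower and 1 to 2 called lower, with 1288 to 2090 of all genes and 10 to 26 partner genes higher. The lowest counts came without Veh replicate 1 or GSK replicate 3 (4 lower) and without GSK replicate 1 (10 partner genes higher), and 1 call was left only without GSK replicate 3.

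Signs turned only for members that did not pass the test. With a mean count of at least 50, Ep300 was at -0.0021, and with the length trend removed Kat6a was at 0.052, Crebbp at 0.019 and Ncor1 at 0.062. Without 1 sample the log2 fold change ranged from -0.15 to 0.0027 for Hdac10, -0.034 to 0.046 for Kat6a, -0.036 to 0.043 for Ep300, -0.19 to 0.094 for Sirt5, -0.21 to 0.56 for Hdac11, -0.018 to 0.074 for Sirt1 and -0.060 to 0.017 for Ncor1. The cause was not tested.

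Both groups carry replicate numbers 1 to 3. After subtraction of the group means, samples with the same number correlated across genes at -0.052, -0.081 and 0.16, so the numbers were not taken to pair the samples. With a replicate block in the model, 3 members were higher, 7 lower and 2 called lower, with Hdac6 and Sirt6 lost.

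Brdt and Nmnat2, at few counts, were not tested at a mean count of at least 50. Counting depth limited Hdac11 and Hdac9.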
